A study of Homo sapiens with 6 samples.

Results

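The cytosolic ribosomal protein genes were followed in OVCAR8 cells, a line from high-grade serous ovarian cancer, after DZNep treatment or silencing of EZH2. A gene belonged to the set when its symbol was that of a large-subunit (RPL) or small-subunit (RPS) protein, with RPLP0, RPLP1, RPLP2 and RPSA included, and when its value was at least 10 in at least 2 of the 6 samples. Of the 14930 genes listed, 82 matched by name, and all 82 were among the 9671 that passed this filter. They comprised 32 genes of the 40S (small) subunit and 50 genes of the 60S (large) subunit. Of these, 5 are second copies of another member (RPL22L1, RPL26L1, RPL39L, RPL7L1 and RPS27L), which left 77 other members. The pseudogenes of the family, the mitochondrial ribosomal proteins and a few ribosomal proteins with other kinds of symbols were outside the rule and are described separately.

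The 3 groups had 2 replicates each and were collected after 72 hours. Ctrl samples were OVCAR8 control cells, and the labels name DMSO as the vehicle. DZNep samples received 5 μM DZNep, a compound that blocks the breakdown of S-adenosylhomocysteine and lowers EZH2 protein. The shEZH2 samples carried a doxycycline-inducible hairpin against EZH2 and received 1 μg/mL doxycycline; the silencing line holds 1 hairpin. These dose units follow the study's methods, because the labels print larger ones. Whether the Ctrl cells carried a hairpin or received doxycycline is not given in the sources used here, so the effects of doxycycline and of the hairpin cannot be told apart. Nothing in the labels says that the replicates came from separate cultures, and p-values therefore measure only the spread between these samples.

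The ribosome is built from ribosomal RNA and a fixed set of proteins, nearly all present in 1 copy per particle. Cells make them in matched amounts, and surplus ribosomal proteins are degraded. Most of their mRNAs start with a C followed by a run of C and U letters, the terminal oligopyrimidine (TOP) motif, through which mTORC1 and the RNA-binding protein LARP1 control their translation and stability. EZH2 is the methyltransferase subunit of the Polycomb repressive complex PRC2.

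To show the sequence feature that ties these genes together, start-site windows are printed for members at both ends of the range of changes, with and without the feature, and for pairs of gene copies. RefSeq promoters (GRCh38.p14) matched 66 of the 82 members. Each window holds 12 bases before the start site and 18 from it on, 5′ to 3′, and capitals mark a C that opens a run of at least 5 C or T letters within 5 bases of the start. The first 3 windows belong to members with some of the deepest falls under DZNep.
RPL12 at chr9:127451389-127451418, minus strand: cgcgatttccggCCTCTCggctttcggctc
RPS12 at chr6:132814557-132814586, plus strand: tgcggatgaggcCTCTTTCCCTgccgccgc
RPL13A at chr19:49487596-49487625, plus strand: caaaacctcctcCTTTTCCaagcggctgcc
The next 5 belong to members that did not pass the test with DZNep, of which the last 2 have no run.
RPL29 at chr3:51995878-51995907, minus strand: cgcagcccctttCTCTTCCggttctaggcg
RPL36 at chr19:5690283-5690312, plus strand: cgcggcgccagcCCTTCCgccacggccgtc
RPL41 at chr12:56116621-56116650, plus strand: aacttcgcctttCTCTCggccttagcgcca
RPS15 at chr19:1438384-1438413, plus strand: gcaggcgcggaccaaagcgatctcttctga
RPS26 at chr12:56041906-56041935, plus strand: acacataacctcgattttcttccgccatcc
RPL22 and its copy RPL22L1, which both have a run, are not printed. The last 4 are 2 pairs of gene copies, in which the partner has a run at its start and the second copy has none in its RefSeq window.
RPL26 at chr17:8383176-8383205, minus strand: cagcgtgtagttCTCTTCCCTTTTgcggcc
RPL26L1 at chr5:172958717-172958746, plus strand: cttccaggggtcggcgaacgaaacgcggag
RPS27 at chr1:153990750-153990779, plus strand: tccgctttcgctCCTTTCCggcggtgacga
RPS27L at chr15:63157460-63157489, minus strand: ttgatgccgagcgcagatcgcttgcagctt

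The oligopyrimidine run was found at the start of 51 of the 66 matched members, or 77.3%. Among the 7386 tested genes with a promoter, members included, the share was 22.7%, and among all 27305 promoters it was 21.1%. The RefSeq start lay within 5 bases of the start of the canonical GENCODE v44 transcript for 50 of the 51 members with a run, but for only 8 of the 15 without one. RPL26L1, whose starts in the annotations were 695 bases apart, is among the other 7, as are RPS29 and RPL6. The absence of a run is therefore a statement about the RefSeq window alone. Of the other letters searched in the 300-base promoters, CCGGAAG on either strand was found in 34.8% of the members and 21.4% of the tested genes. The E-box letters CACGTG on either strand were found in 6.1% and 10.8%, AAGATGGC on either strand in 10.6% and 6.4%, and TATAAA upstream of the start on the gene's strand in 4.5% and 2.9%. Matches of different words were counted independently of each other, and each match is only a description of letters.

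EZH2, the silenced gene, had values of 36 and 42 in Ctrl, 26 and 26 in DZNep, and 18 and 18 in shEZH2 samples. Both treated groups lay below both Ctrl samples. Its canonical transcript lies on chromosome 7 of GRCh38 from 148807383 to 148884291. The log2 fold change was -0.63 with DZNep (SE 0.183, n = 2, limma adjusted p = 0.0255) and -1.12 with shEZH2 (SE 0.183, n = 2, limma adjusted p = 0.016). The DZNep call was lost when either shEZH2 replicate, Ctrl replicate 2 or DZNep replicate 2 was left out (log2 between -0.639 and -0.519). With only the groups compared it was lost as well (limma adjusted p = 0.088). Values are the deposited whole numbers, which have the same total in each sample to within rounding, and folds are on the log2(value + 1) scale after rescaling.

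The cells were checked against marker genes. Of 9 epithelial and Müllerian markers, 7 were listed, with KRT8 between 816 and 3540 and KRT18 between 1080 and 4398, while EPCAM was at most 12, WT1 at most 2 and CDH1 between 0 and 8. PAX8 ranged from 10 to 19. The summed epithelial value was 3037 and 2427 in Ctrl, 8547 and 7372 in DZNep, and 3456 and 3458 in shEZH2 samples. Most of it came from KRT8 and KRT18, which rose with DZNep (log2 1.77 and 1.66, limma adjusted p = 0.000851 and 0.00126). KRT7 did not rise, with 597 and 499 in Ctrl, 585 and 503 in DZNep, and 355 and 350 in shEZH2 samples. PAX8 fell with DZNep (log2 -0.68, limma adjusted p = 0.0277). Of 5 leukocyte markers only CD68 and CD14 were listed, and their sum was 71 and 66 in Ctrl, 19 and 17 in DZNep, and 33 and 30 in shEZH2 samples. Fibroblast markers (3 of 6 listed) summed to 25 and 28, 69 and 53, and 53 and 46 in the same order, with LUM at most 2. PDGFRB had 12 and 11, 56 and 42, and 37 and 34, whereas COL1A1 had 13 and 16, 12 and 9, and 16 and 11. The 2 listed endothelial markers of 4 summed to at most 4. The part of these differences in the results was not tested.

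Ribosomal protein mRNAs took up less of the transcriptome in both treated groups. Their summed share of the sample's total value was 11.8% and 10.8% in Ctrl, 6.57% and 6.43% in DZNep, and 8.45% and 8.61% in shEZH2 samples. The groups did not overlap, and the order was Ctrl, then shEZH2, then DZNep. Means were 11.3% ± 0.707 (SD, n = 2), 6.5% ± 0.099 (SD, n = 2) and 8.53% ± 0.113 (SD, n = 2), so the share was 0.575 of the Ctrl mean with DZNep and 0.755 with shEZH2. With 2 samples against 2 a two-sided exact permutation test cannot go below p = 0.33, and no test was made. Because the values are shares of a fixed total, less mRNA per cell and more of other RNA cannot be told apart, nor can fewer cells of a type and less RNA per cell. The most abundant gene, RN7SL1, an RNA of the signal recognition particle, took 6.2% and 5.39% in Ctrl, 10% and 6.79% in DZNep, and 8.17% and 9.06% in shEZH2 samples. Its part in the change of the share was not tested.

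Both subunits took part. Genes of the 40S subunit held 4.88% and 4.42% of the total in Ctrl, 2.62% and 2.45% in DZNep, and 3.39% and 3.47% in shEZH2 samples. Those of the 60S subunit held 6.89% and 6.43%, 3.95% and 3.98%, and 5.06% and 5.14%. The 60S sum divided by the 40S sum was 1.41 and 1.45 in Ctrl, 1.51 and 1.63 in DZNep, and 1.49 and 1.48 in shEZH2 samples. This ratio was higher in every treated sample than in either Ctrl sample.

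Most ribosomal protein mRNAs were lower with DZNep. Of the 82 members, 65 (79.3%) fell and 2 (2.44%) rose at a limma adjusted p under 0.05. Over all tested genes 20.4% were called lower and 22.4% were called higher. The median log2 fold change of the members was -0.94, against 0.02 over all tested genes. Below 0 lay 76 members (92.7%), against 49.1% of all tested genes. At the thresholds of the study's methods, a log2 fold change past 1 with an unadjusted p under 0.05, 37 members (45.1%) were lower and 1 was higher, against 11.8% and 10.5% of all tested genes. With each sample left out in turn, between 55 and 63 members were lower.

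The fall was not uniform. Read against the members' own median in each sample, 25 members were higher and 12 were lower with DZNep (limma adjusted p under 0.05), which is the split beside the 2 higher and 65 lower of the usual scaling. This centring removes any shared change by construction, so members lie on both sides of it. The share of all tested genes called under it is not given here. The SD of the log2 fold changes was 0.66 among the 82 members and 0.5 among the 77 without the second copies, against 0.91 over all tested genes. Genes of the 40S subunit had a median of -1.0 (25 of 32 fell, and 0 rose by limma at either an adjusted or an unadjusted p under 0.05, the latter passed by 26.5% of all tested genes) and those of the 60S subunit one of -0.89 (40 of 50 fell, 2 rose). All of the 31 members of the 40S subunit other than RPS27L had a log2 fold change below 0.

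**Figure D1:**
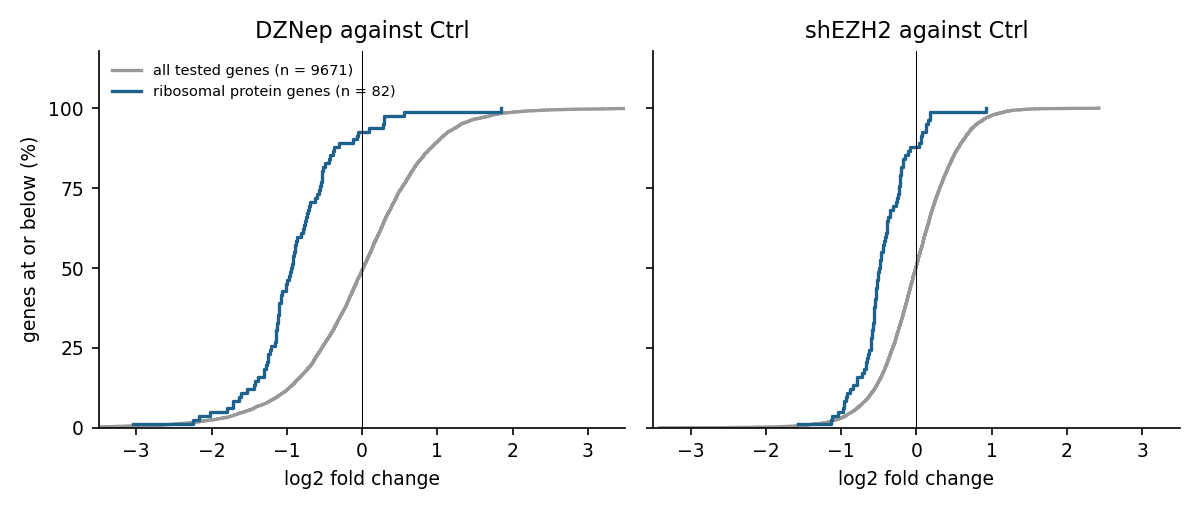
Cumulative share of genes (vertical axis, %) at or below each log2 fold change (horizontal axis) for the 82 ribosomal protein genes and all 9671 tested genes, with DZNep on the left and shEZH2 on the right. The ribosomal protein curve lies to the left of the other in both panels, with medians of -0.94 and -0.49.

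The changes with shEZH2 were smaller. In these samples, 19 of the 82 members (23.2%) fell and 1 (1.22%) rose, against 4.53% and 3.91% of all tested genes (limma adjusted p under 0.05). The members' median log2 fold change was -0.49, against -0.01 over all tested genes. Below 0 lay 72 members (87.8%), against 50.6% of all tested genes. The count of fallen members was 11 without Ctrl replicate 2 and 0 without either shEZH2 replicate, and it was 61 once transcript length and GC content had been removed from the values. At an unadjusted p under 0.05, 44 members were lower and 1 was higher by limma, against 13.3% and 14.9% of all tested genes. At the thresholds of the study's methods 4 members were lower and 0 were higher by limma, against 3.03% and 2.27% of all tested genes. Read against the members' own median, which places members on both sides by construction, 11 were higher and 10 were lower. The lower calls with shEZH2 given for single members below are among those lost without either shEZH2 replicate.

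The shEZH2 replicates were nearly alike, and the others were not. Over the members, the log2 difference between replicates had an SD of 0.046 in shEZH2, 0.235 in Ctrl and 0.289 in DZNep samples. GC content went with the differences within groups: Spearman's rho across the 82 members was 0.64 for Ctrl replicate 1 minus 2, 0.72 for the DZNep replicates and -0.09 for the shEZH2 replicates. With the treatment changes rho was 0.23 for DZNep and 0.4 for shEZH2, against 0.25 and 0.35 over 9517 genes. Genes within a sample share its library and are not independent, so these are descriptions. With transcript length and GC content removed from the values, 70 members were lower with DZNep and 61 with shEZH2 (limma adjusted p under 0.05). The members' median GC content of 47.5% was near the 48.5% of all tested genes, whereas their median transcript of 827 nt was shorter than the 3291 nt of all tested genes.

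The direct comparison of the treated groups placed shEZH2 above DZNep. Of the members, 14 (17.1%) were higher and 1 was lower with shEZH2 than with DZNep, against 4.88% and 4.42% of all tested genes (limma adjusted p under 0.05). The median difference was 0.46 on the log2 scale, and 77 members lay above 0, against a median of 0 and 50% over all tested genes. The count of 14 became 7 without DZNep replicate 2, 0 without either shEZH2 replicate, 23 with the values as deposited and 58 once transcript length and GC content had been removed, and read against the members' own median it was 6 higher and 7 lower. At an unadjusted p under 0.05, 45 members were higher and 3 lower by limma, against 13.4% and 14% of all tested genes. All 6 samples stood in the order Ctrl, shEZH2, DZNep with no overlap for 60 members (73.2%), against 17.2% of all tested genes. For 2 members (2.44%) they stood in the opposite order, against 18.1% of all tested genes. The direct calls of RPL12 and RPL28 given below are among those lost without either shEZH2 replicate.

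**Figure D2:**
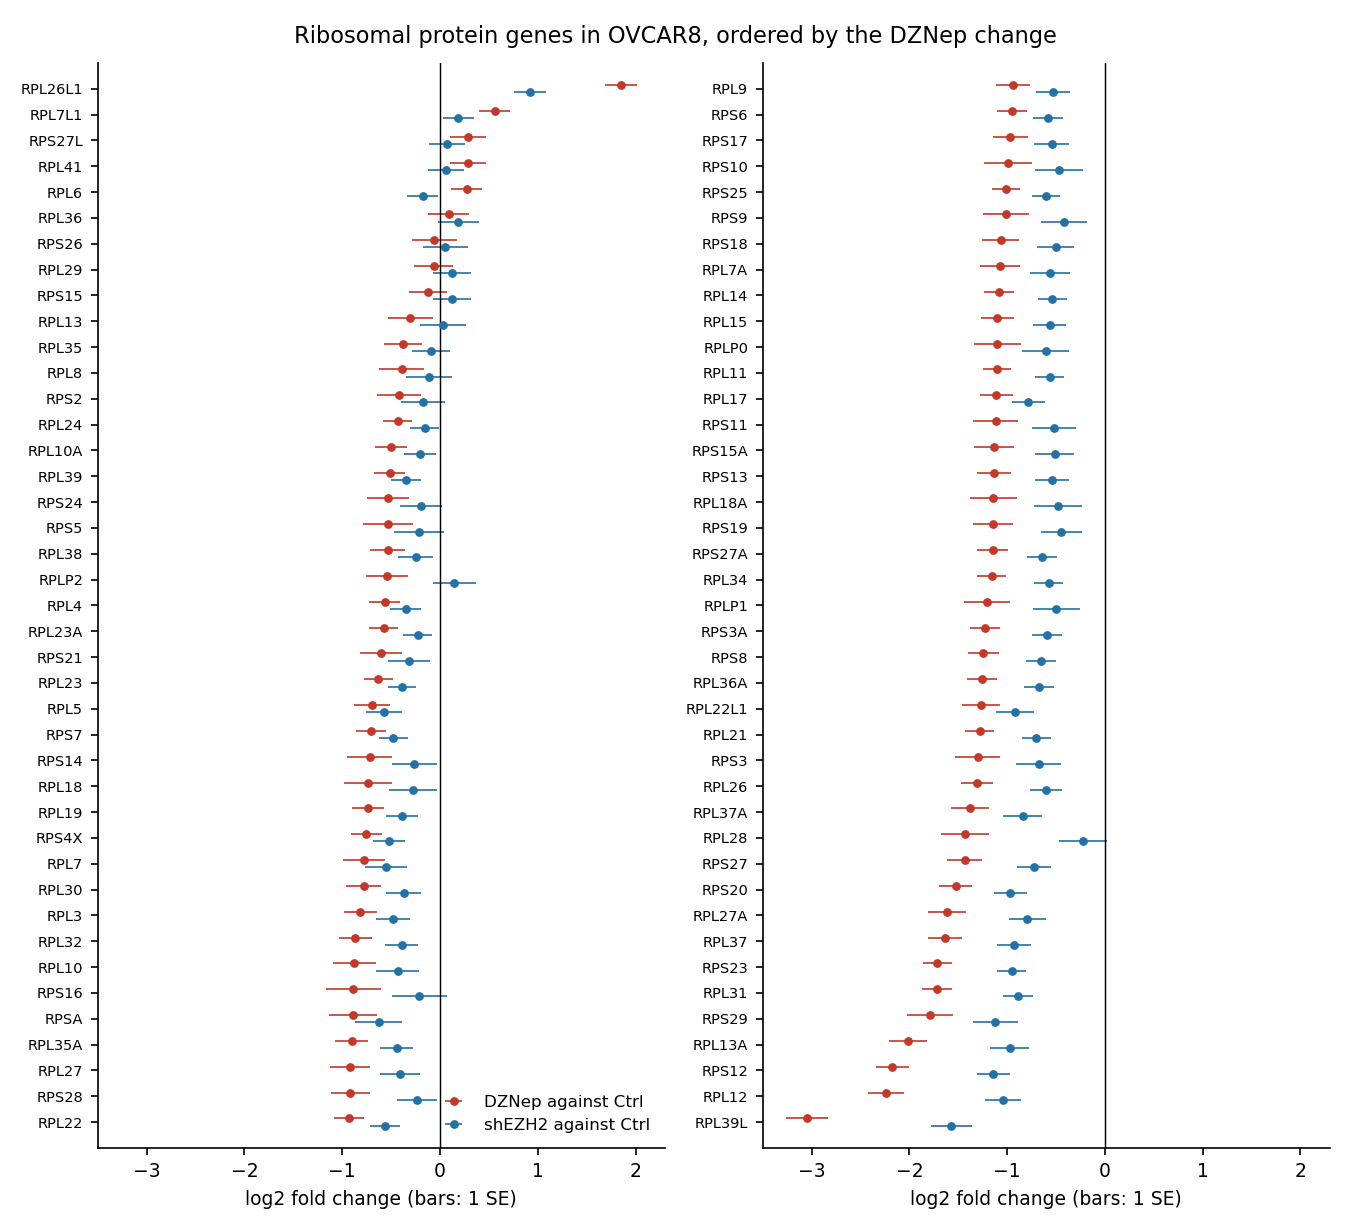
Log2 fold change against Ctrl (horizontal axis) of each of the 82 ribosomal protein genes (rows, ordered by the DZNep change), in red for DZNep and in blue for shEZH2, with bars of 1 SE. The range with DZNep runs from -3.05 for RPL39L to 1.85 for RPL26L1, and the blue point lies to the right of the red one for 77 genes.

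Of 13 genes of the 40S subunit with assigned roles in decoding, mRNA entry and exit, signalling and assembly, 10 fell with DZNep and 4 with shEZH2. Of all members 79.3% and 23.2% fell, and of all tested genes 20.4% and 4.53%, so these counts were near the members' own share. RPS12 had values of 1275 and 1182 in Ctrl, 279 and 292 in DZNep, and 563 and 589 in shEZH2 samples. The 3 groups were well apart, and RPS12 fell by 2.17 on the log2 scale with DZNep (to 22.2% of Ctrl; SE 0.17, n = 2, limma adjusted p = 0.000119) and to 45.4% of Ctrl with shEZH2 (limma adjusted p = 0.0135). It is a protein of the small subunit's beak. RPS29, a small zinc-binding protein of the 40S head, had 828 and 630 in Ctrl, 236 and 203 in DZNep, and 347 and 339 in shEZH2 samples. Its log2 fold change was -1.79 with DZNep (SE 0.233, limma adjusted p = 0.000879) and -1.12 with shEZH2 (limma adjusted p = 0.0287).

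RPS20, a head protein near the mRNA entry side, had 642 and 632 in Ctrl, 234 and 230 in DZNep, and 342 and 331 in shEZH2 samples. It fell to 34.8% of Ctrl with DZNep (limma adjusted p = 0.000454) and to 51.1% with shEZH2 (limma adjusted p = 0.0184). RPS2, which lines the mRNA entry channel and was among the 3 members with the highest values, stayed closer to Ctrl. Its values were 4648 and 4088 in Ctrl, 3740 and 3137 in DZNep, and 3895 and 4098 in shEZH2 samples, and its log2 fold change of -0.42 with DZNep did not pass the test (limma adjusted p = 0.171). With transcript length and GC content removed, RPS2 had -0.66 and passed (limma adjusted p = 0.000547). RPS26, at the mRNA exit, had 421 and 391 in Ctrl, 468 and 359 in DZNep, and 434 and 439 in shEZH2 samples. The deposited DZNep values lay on either side of Ctrl and the shEZH2 values slightly above it. After rescaling the shEZH2 values lay between the Ctrl values. The log2 fold changes of -0.06 and 0.06 did not pass the test (limma adjusted p = 0.853 and 0.891). RPS15, whose tail reaches the decoding site, had 865 and 788 in Ctrl, 842 and 758 in DZNep, and 955 and 911 in shEZH2 samples. Its log2 fold change was -0.12 with DZNep (limma adjusted p = 0.646).

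The stalk of the large subunit recruits and activates the translational GTPases. Of its 4 genes, 3 fell with DZNep and 1 with shEZH2, beside 79.3% and 23.2% of all members and 20.4% and 4.53% of all tested genes. RPL12, which anchors the stalk base, had 1441 and 1269 in Ctrl, 302 and 298 in DZNep, and 669 and 686 in shEZH2 samples. Every treated value lay below both Ctrl values, with a log2 fold change of -2.24 with DZNep (SE 0.184, n = 2, limma adjusted p = 0.000149) and -1.04 with shEZH2 (limma adjusted p = 0.019). The difference of 1.2 between the treatments passed the test (limma adjusted p = 0.0112). RPLP0, the stalk scaffold and the member with the highest values in Ctrl, went from 5871 and 4512 to 2694 and 2359 under DZNep, and its shEZH2 values were 3522 and 3481. It fell to 46.6% of Ctrl with DZNep (limma adjusted p = 0.00802), and its shEZH2 log2 fold change of -0.60 did not pass (limma adjusted p = 0.148).

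The remaining stalk genes encode the acidic proteins that form its flexible arm. RPLP1 had 1129 and 958 in Ctrl, 540 and 415 in DZNep, and 754 and 770 in shEZH2 samples. RPLP2 had 453 and 364, 312 and 275, and 471 and 460 in the same order. RPLP1 fell by 1.21 on the log2 scale with DZNep (limma adjusted p = 0.00544), while RPLP2 had -0.54 (limma adjusted p = 0.0778). RPLP2 did pass as lower with the values as deposited (limma adjusted p = 0.0452), with transcript length and GC content removed (limma adjusted p = 0.00222), and without Ctrl replicate 2 or DZNep replicate 1 (limma adjusted p = 0.0287 and 0.0418). With shEZH2, RPLP1 had -0.50 and RPLP2 0.15, and neither passed the test (limma adjusted p = 0.215 and 0.691).

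RPL5 and RPL11 bind the 5S ribosomal RNA before it joins the large subunit, and outside the ribosome they bind the p53 regulator MDM2. RPL5 had 1193 and 1596 in Ctrl, 735 and 1092 in DZNep, and 951 and 967 in shEZH2 samples. RPL11 had 1022 and 1163, 480 and 591, and 778 and 746. Neither gene overlapped Ctrl in either treated group. With DZNep RPL5 fell to 61.8% (limma adjusted p = 0.0175) and RPL11 to 46.5% of Ctrl (limma adjusted p = 0.000991). The RPL5 call was lost without Ctrl replicate 2, DZNep replicate 1 or either shEZH2 replicate (log2 between -0.701 and -0.536). The RPL5 call was also lost with the values as deposited (limma adjusted p = 0.0759) and with only the groups compared (limma adjusted p = 0.0526). With shEZH2 neither passed the test, with log2 fold changes of -0.57 for RPL5 (limma adjusted p = 0.0871) and -0.56 for RPL11 (limma adjusted p = 0.0543).

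Around the exit of the polypeptide tunnel, where the growing chain leaves the 60S subunit, 8 of 9 genes fell with DZNep and 2 with shEZH2. These counts were near the share of all members that fell (79.3% and 23.2%), beside 20.4% and 4.53% of all tested genes. RPL31 stood at the low end, with 1452 and 1586 in Ctrl, 427 and 551 in DZNep, and 851 and 846 in shEZH2 samples. It fell to 30.5% of Ctrl with DZNep (limma adjusted p = 0.000198) and to 54.1% with shEZH2 (limma adjusted p = 0.018). RPL35, a docking site for the signal recognition particle, was the member of this group that did not pass, with 1838 and 1598 in Ctrl, 1424 and 1351 in DZNep, and 1641 and 1689 in shEZH2 samples.

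Elsewhere in the 60S subunit, RPL13A, a protein that also takes part in transcript-selective translational control, had 4351 and 3850 in Ctrl, 1089 and 1039 in DZNep, and 2107 and 2204 in shEZH2 samples. It fell to 24.7% of Ctrl with DZNep (limma adjusted p = 0.000288) and to 50.9% with shEZH2 (limma adjusted p = 0.0272). RPL28 set the treatments apart. Its values were 195 and 192 in Ctrl, 89 and 63 in DZNep, and 170 and 173 in shEZH2 samples, so that shEZH2 stayed near Ctrl. The log2 fold change was -1.43 with DZNep (SE 0.243, limma adjusted p = 0.00283) and -0.22 with shEZH2 (limma adjusted p = 0.585). The direct difference of 1.21 passed the test (limma adjusted p = 0.0245).

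A few large-subunit genes were not called lower with DZNep. RPL41, which encodes the smallest ribosomal protein, had 1244 and 1129 in Ctrl, 1535 and 1506 in DZNep, and 1245 and 1311 in shEZH2 samples. RPL36 had 1140 and 995, 1271 and 1112, and 1229 and 1276. The values of RPL29 were 1253 and 1077, 1208 and 1127, and 1312 and 1305. Both deposited DZNep values of RPL41 were above Ctrl, whereas those of RPL36 and RPL29 overlapped it. After rescaling RPL41 overlapped as well, with 1640.1 and 1349 in DZNep against 1352.2 and 1098.2 in Ctrl. Their log2 fold changes with DZNep were 0.29, 0.09 and -0.06, and none passed the test (limma adjusted p = 0.244, 0.76 and 0.809). With the values as deposited RPL41 had a log2 fold change of 0.36 and passed as higher (limma adjusted p = 0.0379), as it did with transcript length and GC content removed (limma adjusted p = 0.0125). RPL29 passed as lower, at -0.26, in 1 alternative, with a replicate block and with length and GC content removed (limma adjusted p = 0.018).

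RPL6 and RPL8 did not pass the test in the usual scaling either. RPL6 had 717 and 912 in Ctrl, 901 and 1169 in DZNep, and 739 and 741 in shEZH2 samples, with a log2 fold change of 0.27 with DZNep (limma adjusted p = 0.2). RPL8, a protein close to the peptidyl transferase centre and among the 3 with the highest values, had 4807 and 4327, 4056 and 3299, and 4284 and 4446. It had a log2 fold change of -0.39 with DZNep (limma adjusted p = 0.206), and with transcript length and GC content removed it had -0.63 and passed (limma adjusted p = 0.000604). RPL3 and RPL10, which border the same catalytic region, fell. RPL3 went from 2209 and 2124 to 1254 and 1335 with DZNep (limma adjusted p = 0.00679), and RPL10 from 1272 and 1024 to 699 and 609 (limma adjusted p = 0.015). The RPL10 call was lost without Ctrl replicate 1 (limma adjusted p = 0.0503) and without DZNep replicate 2 (limma adjusted p = 0.0538).

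Of the 19 members on a list of genes mutated in Diamond-Blackfan anaemia, an inherited red cell aplasia caused by loss of 1 allele of a ribosomal protein gene, 16 fell with DZNep and 3 with shEZH2. Of all members 79.3% and 23.2% fell, and of all tested genes 20.4% and 4.53%. The median log2 fold change of the list was -0.97 with DZNep and -0.48 with shEZH2, close to that of all members. RPS29 and RPS26, described above, stood at its low and high ends in both comparisons.

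The 5 second copies did not move together. With DZNep 2 rose and 2 fell, and with shEZH2 1 rose and 2 fell. Over all tested genes 22.4% rose and 20.4% fell with DZNep, and 3.91% and 4.53% with shEZH2. RPL26L1 had 64 and 59 in Ctrl, 212 and 262 in DZNep, and 122 and 121 in shEZH2 samples. The groups did not overlap, and this was the reverse of the order found in most members. RPL26L1 was 3.61-fold higher with DZNep (log2 1.85, SE 0.164, n = 2, limma adjusted p = 0.000203) and had a log2 fold change of 0.92 with shEZH2 (limma adjusted p = 0.0193). The shEZH2 call was lost without Ctrl replicate 2 (log2 0.787) and with the shEZH2 samples averaged as 1. RPL26L1 was also the 1 member lower with shEZH2 than with DZNep, by -0.93 (limma adjusted p = 0.0173).

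Its partner RPL26 went the other way. RPL26 had 858 and 1110 in Ctrl, 354 and 484 in DZNep, and 659 and 672 in shEZH2 samples. The RPL26L1 value was 7.46% and 5.32% of the RPL26 value in Ctrl, 59.9% and 54.1% in DZNep, and 18.5% and 18% in shEZH2 samples. A ratio within a sample does not depend on how the sample was scaled, but since it is not stated whether the values were divided by transcript length, only its change between samples can be read. The canonical transcript of RPL26L1 lies on chromosome 5 from 172959424 to 172969771, and that of RPL26 on chromosome 17 from 8377516 to 8383193.

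RPL39L showed the opposite. This copy of RPL39, known for its part in spermatogenesis, had 50 and 43 in Ctrl, 5 and 5 in DZNep, and 15 and 16 in shEZH2 samples. It had the lowest log2 fold change of all members in both comparisons, -3.05 with DZNep (12.1% of Ctrl; SE 0.211, n = 2, limma adjusted p = 7.24e-05) and -1.57 with shEZH2 (limma adjusted p = 0.0102). RPL39 itself had 505 and 519, 359 and 394, and 403 and 429, and fell to 70% of Ctrl with DZNep (limma adjusted p = 0.0296). That call was lost after removal of transcript length and GC content (limma adjusted p = 0.148) and with only the groups compared (limma adjusted p = 0.11). It was also lost without either Ctrl replicate, either shEZH2 replicate or DZNep replicate 2 (log2 between -0.576 and -0.455). The copy went from 9.9% and 8.29% of its partner in Ctrl to 1.39% and 1.27% in DZNep and 3.72% and 3.73% in shEZH2 samples. At a value of 5 the rounding to whole numbers limits the precision.

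RPL22L1, the copy of RPL22, had 33 and 40 in Ctrl, 13 and 18 in DZNep, and 18 and 21 in shEZH2 samples. It fell in both comparisons, with log2 fold changes of -1.26 with DZNep (limma adjusted p = 0.00181) and -0.92 with shEZH2 (limma adjusted p = 0.0306). The shEZH2 call was lost without Ctrl replicate 2 (log2 -0.859) and without either shEZH2 replicate. RPL22 had 414 and 465, 207 and 283, and 303 and 310. RPL22 fell with DZNep (limma adjusted p = 0.00255). The copy was 7.97% and 8.6% of its partner in Ctrl, 6.28% and 6.36% in DZNep, and 5.94% and 6.77% in shEZH2 samples, so it was lower in every treated sample.

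RPL7L1 and RPS27L kept or gained ground on partners that fell. RPL7L1, a nucleolar factor of ribosome assembly related to RPL7, had 156 and 185 in Ctrl, 224 and 310 in DZNep, and 200 and 200 in shEZH2 samples. It rose with DZNep by a log2 fold change of 0.56 (limma adjusted p = 0.023). The call was lost without either Ctrl replicate, either shEZH2 replicate or DZNep replicate 2 (log2 between 0.442 and 0.601). With only the groups compared it was lost as well (limma adjusted p = 0.0898). RPL7 had 1242 and 1894, 748 and 1186, and 1070 and 1093, and its DZNep call (limma adjusted p = 0.0218) was lost without Ctrl replicate 2 or DZNep replicate 1 (log2 -0.551 and -0.57). The RPL7 call was also lost with the values as deposited (limma adjusted p = 0.0959). The copy's share of its partner went from 12.6% and 9.77% to 29.9% and 26.1% under DZNep and 18.7% and 18.3% under shEZH2. RPS27L, a p53-responsive copy of RPS27, had 32 and 40, 38 and 56, and 40 and 38, with a log2 fold change of 0.29 with DZNep (limma adjusted p = 0.239). With transcript length and GC content removed RPS27L had 0.56 and passed as higher (limma adjusted p = 0.00504). RPS27 went from 743 and 659 to 264 and 279 with DZNep (limma adjusted p = 0.000702) and to 428 and 446 with shEZH2 (limma adjusted p = 0.0453). Its shEZH2 call was lost without Ctrl replicate 1 (log2 -0.561) and without either shEZH2 replicate.

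**Figure D3:**
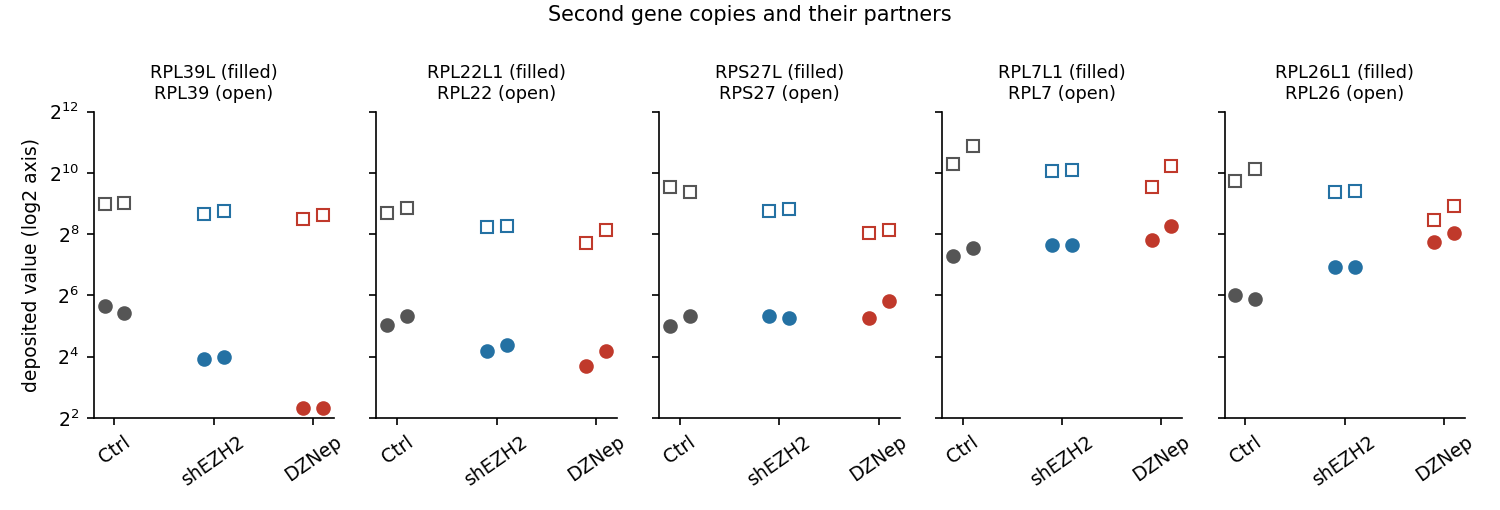
Deposited values (vertical axis, log2 scale) of the 5 second copies (filled circles) and their partners (open squares) in each sample of the 3 groups. RPL26L1 climbs from 64 and 59 in Ctrl to 212 and 262 in DZNep samples while RPL26 drops, and RPL39L drops from 50 and 43 to 5 and 5.

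Reads of near-identical pseudogenes cannot be fully separated from those of the members. The table lists 33 pseudogene rows of the family, and their sum was 1.66% and 1.58% of the members' sum in Ctrl, 1.93% and 1.79% in DZNep, and 1.77% and 1.78% in shEZH2 samples. The most abundant were RPL9P9, RPS2P5 and RPL23AP42, so the values of RPL9, RPS2 and RPL23A are less certain than most. RPL23AP42 had 194 and 228 in Ctrl samples, beside 558 and 592 for RPL23A.

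The start-site windows were set beside the changes. Members with an oligopyrimidine run (n = 51) had median changes (log2) of -1.01 with DZNep and -0.50 with shEZH2, and those without one (n = 15) had medians of -0.75 and -0.41. The ranges overlapped widely: with a run they reached from -2.24 to 0.29 under DZNep, and without one from -1.79 to 1.85. RPL29, RPL36 and RPL41, whose windows are printed above, had a run at the start and did not pass as lower in the usual scaling, and RPS15 and RPS26, without a run, did not either. RPL26L1, RPL7L1 and RPS27L had no run in the RefSeq window, and RPL22L1, which fell, had one.

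Proteins of the cytosolic ribosome with other kinds of symbols gave mixed values. RACK1, the 40S scaffold listed under its older symbol GNB2L1, had 4477 and 3890 in Ctrl, 2463 and 2301 in DZNep, and 3118 and 3161 in shEZH2 samples, and fell with DZNep (log2 -0.88, limma adjusted p = 0.0108). FAU, which encodes RPS30 as a fusion with a ubiquitin-like protein, had 596 and 461, 711 and 586, and 616 and 610. A DZNep sample lay above both Ctrl samples and the other between them, and the log2 fold change was 0.23 with DZNep (limma adjusted p = 0.471). RPL36AL, an intronless copy of RPL36A, had 160 and 209, 129 and 198, and 172 and 166. RPS27A, the member fused to ubiquitin, fell with DZNep from 776 and 969 to 359 and 469 (limma adjusted p = 0.00107); it was singled out after its values were seen.

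Other mRNAs known for a TOP start were mostly lower as well. Of 20 genes for translation factors and related TOP mRNAs, RACK1 and FAU included, 17 fell with DZNep and 3 with shEZH2, with median log2 fold changes of -0.88 and -0.49. The shares called lower over all tested genes were 20.4% and 4.53%. EEF1D, an exchange factor of elongation factor 1, had 2371 and 2037 in Ctrl, 542 and 477 in DZNep, and 985 and 1029 in shEZH2 samples. It fell by 2.18 on the log2 scale with DZNep (limma adjusted p = 0.000274) and by 1.17 with shEZH2 (limma adjusted p = 0.0195). PABPC1, the poly(A)-binding protein, had 258 and 281 in Ctrl, 87 and 128 in DZNep, and 252 and 222 in shEZH2 samples. Its log2 fold change was -1.41 with DZNep (limma adjusted p = 0.000609) and -0.23 with shEZH2 (limma adjusted p = 0.393), and the difference between the treatments passed the test (limma adjusted p = 0.00909).

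RNAs that host small nucleolar RNAs in their introns often start with a TOP motif as well. Of 13 such host RNAs, 9 fell and 1 rose with DZNep, and 6 fell with shEZH2. Among all tested genes 20.4% fell and 22.4% rose with DZNep, and 4.53% fell with shEZH2. SNHG6 had 189 and 212 in Ctrl, 41 and 51 in DZNep, and 84 and 88 in shEZH2 samples, with log2 fold changes of -2.18 (limma adjusted p = 7.9e-05) and -1.26 (limma adjusted p = 0.00793). SNHG15 was the 1 that rose, from 38 and 29 to 143 and 124 with DZNep (limma adjusted p = 0.00076), and stood at 53 and 55 with shEZH2.

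Genes that assemble ribosomes did not follow the ribosomal proteins. Of 55 assembly and rRNA-processing factors, 21 rose and 1 fell with DZNep, and 3 rose and 1 fell with shEZH2, with medians of 0.39 and 0.11. Over all tested genes 22.4% were called higher and 20.4% lower with DZNep, and 3.91% and 4.53% with shEZH2. NOP2, an rRNA methyltransferase, had 37 and 30 in Ctrl, 153 and 142 in DZNep, and 58 and 55 in shEZH2 samples. It rose by a log2 fold change of 2.04 with DZNep (limma adjusted p = 0.000371). RRP12, an export factor for pre-ribosomes, was the highest with shEZH2, going from 35 and 24 in Ctrl to 66 and 66 (log2 1.11, limma adjusted p = 0.0415). NCL, which encodes nucleolin, was the 1 that fell with shEZH2, from 252 and 338 to 178 and 189 (log2 -0.72, limma adjusted p = 0.0428). EFL1, listed as EFTUD1, releases the anti-association factor EIF6 and was the 1 that fell with DZNep, from 11 and 16 to 8 and 10 (limma adjusted p = 0.0488).

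Of 12 tested genes of 15 for RNA polymerase I and its regulators, 5 rose and 1 fell with DZNep, and 1 rose and 1 fell with shEZH2. The shares of all tested genes were 22.4% higher and 20.4% lower with DZNep, and 3.91% and 4.53% with shEZH2. MYC, a transcription factor for ribosome assembly genes, had 73 and 69 in Ctrl, 201 and 207 in DZNep, and 136 and 139 in shEZH2 samples. The groups did not overlap, and MYC rose by log2 fold changes of 1.44 (limma adjusted p = 0.000605) and 0.90 (limma adjusted p = 0.0226). TAF1D, a polymerase I factor whose transcript also hosts small nucleolar RNAs, went from 212 and 271 to 75 and 91 with DZNep (limma adjusted p = 0.000288) and to 126 and 117 with shEZH2 (limma adjusted p = 0.014).

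Among 10 chaperones and importers of ribosomal proteins, 2 rose and 1 fell with DZNep, and 1 fell with shEZH2. Over all tested genes 22.4% were higher and 20.4% lower with DZNep, and 3.91% and 4.53% with shEZH2. With DZNep neither this list nor the mTORC1 and p53 lists below went above these shares in either direction. GRWD1, the chaperone of RPL3, went from 46 and 34 to 166 and 127 with DZNep (limma adjusted p = 0.00158), and IPO5, an importer, from 532 and 744 to 177 and 318 (limma adjusted p = 0.00167). Among 19 tested genes of 21 for mTORC1 signalling and LARP1, 2 rose and 2 fell with DZNep and none was called with shEZH2 by limma. At an unadjusted p under 0.05 by limma, 3 were higher and 0 lower with shEZH2, against 14.9% and 13.3% of all tested genes. The list median with shEZH2 was 0.16. EIF4G1 had 87 and 77 in Ctrl and 170 and 177 in DZNep samples (limma adjusted p = 0.00342), and SESN3 had 14 and 19 and then 9 and 8 (limma adjusted p = 0.011). Of 7 tested p53 targets of 11, 1 rose (ZMAT3) and 1 fell (CDKN1A) with DZNep, none was called with shEZH2 by limma (1 higher and 1 lower at an unadjusted p under 0.05), and the DZNep list median was -0.07.

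Mitochondrial ribosomal proteins, which build the separate ribosome of the mitochondrion, were more often higher than lower with DZNep. Of 76 tested genes of 77, 35 rose, 5 fell and 36 were not called with DZNep, beside 22.4% higher and 20.4% lower over all tested genes. With shEZH2, 2 rose and 0 fell, beside 3.91% and 4.53% of all tested genes. At an unadjusted p under 0.05 by limma, 20 were higher and 3 lower with shEZH2, beside 14.9% and 13.3% of all tested genes. Their median log2 fold change was 0.53 with DZNep and 0.19 with shEZH2. MRPS2 had 70 and 59 in Ctrl, 287 and 219 in DZNep, and 126 and 128 in shEZH2 samples, with a log2 fold change of 1.88 with DZNep (limma adjusted p = 0.000851). MRPS6 went from 30 and 28 to 10 and 16 with DZNep (limma adjusted p = 0.00324).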

How the data were processed

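RNA-Seq of OVCAR8 cells covered 6 samples in 3 groups of 2 (Ctrl, DZNep, shEZH2), grouped by their labels. Per the study's methods, ribosomal RNA was removed, stranded libraries were sequenced, and reads were trimmed with fastp, aligned to GRCh38 with STAR and quantified with RSEM on GENCODE v37; fastp, STAR and RSEM are also named in the submitters' processing notes. The deposited values are a score per gene: the authors scaled each sample to a common total (999956 to 1000068) and rounded to whole numbers, and whether they divided by transcript length is not given in the sources used here. Several symbols are older than that annotation. Read depth is therefore unknown, and no counting interval or floor was computed.

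The study's methods used a read-count test, which these values do not allow. Here group means were compared with limma 3.58.1 (R 4.3.3; lmFit, eBayes with trend) on log2(value + 1) after unweighted TMM factors (trims of 30% and 5%; factors 0.92 to 1.12), for genes with at least 10 in at least 2 samples, with 1 fit of 3 group means (3 residual degrees of freedom), two-sided, Benjamini-Hochberg adjusted over 9671 genes. Simulated data were used to test the code.

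The members, gene lists and tests were chosen with earlier results of these data known, so lists are described by counts and medians without a set test. Named genes were EZH2, the 6 highest and 6 lowest members per contrast, the members of the stalk, 5S particle and copy-pair lists, the 3 highest and 3 lowest members by level, the ribosomal proteins outside the naming rule, and the extremes of each other list. A gene that this rule names is not reported here. Transcript length, GC content and positions came from canonical GENCODE v44 transcripts (92.6% of listed genes, 98.4% of tested genes and all members), and promoters from RefSeq. Comparisons with other scalings, filters, pseudocounts, covariates, sample sets and thresholds are given at the end. RNA from GSK126-treated cells and the study's other assays were not analysed here. Plots were made in Python 3.11.15 using matplotlib 3.10.9.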

Additional observations from a re-analysis of the deposited data

How the results depend on the processing

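Read depth is unknown, and the 2 replicates per group and the rounding limit the precision. Median-ratio scaling, scaling on genes other than the members, pseudocounts of 0.5 and 5, and a filter of 50 left each count of higher and lower members within 1.5 times its value. Outside of centring on the members' median, the members' median log2 fold change stayed between -0.971 and -0.863 for DZNep, between -0.512 and -0.44 for shEZH2, and between 0.433 and 0.474 for shEZH2 against DZNep. With each sample left out in turn it stayed between -1.072 and -0.814, between -0.563 and -0.348, and between 0.395 and 0.55, and the counts were 1 to 2 higher and 55 to 63 lower for DZNep, 0 to 1 higher and 0 to 25 lower for shEZH2, and 0 to 21 higher and 0 to 1 lower for the direct comparison. Leaving out a shEZH2 replicate leaves a lone sample that is assumed to vary like the other groups.

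With each sample centred on the members' median, which removes any change they share by construction, DZNep gave 25 higher, 12 lower and a median of 0.078, shEZH2 gave 11 higher, 10 lower and a median of -0.002, and shEZH2 against DZNep gave 6 higher, 7 lower and a median of -0.065. There the DZNep change of EZH2 was 0.38, of RPL10 0.135, of RPL22 0.086, of RPL29 0.947, of RPL3 0.198, of RPL39 0.497, of RPL5 0.318, of RPL7 0.238, of RPL8 0.623, of RPLP2 0.471, of RPS15 0.894 and of RPS2 0.593, and the direct difference of RPL29 was -0.337, of RPL36 -0.427 and of RPL39 -0.358. The cause of the following changes was not tested. Members higher with DZNep were 1 with only the groups compared, with the shEZH2 samples averaged as 1 and at the study's thresholds (where 37 were lower), and 4 with length and GC content removed. Members lower with shEZH2 were 12 with a filter of 1, 61 (2 higher) with length and GC content removed, 0 (0 higher) with the shEZH2 samples averaged, 4 (0 higher) at the study's thresholds and 44 at an unadjusted p under 0.05. Members higher with shEZH2 than with DZNep were 23 with the values as deposited, 7 with a filter of 1, 58 (2 lower) with length and GC content removed, 8 without the trend, 0 (0 lower) with the shEZH2 samples averaged, 5 (0 lower) at the study's thresholds, and 45 (3 lower) at an unadjusted p under 0.05.

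The replicate numbers did not pair all samples: deviations of replicate 1 correlated at 0.786 between Ctrl and DZNep, at -0.024 between Ctrl and shEZH2, and at -0.038 between DZNep and shEZH2. With the replicate block 69 members were lower and 2 higher with DZNep, 44 lower and 1 higher with shEZH2, and 40 higher and 1 lower in the direct comparison. With the block and with length and GC content removed, 4 were higher with DZNep, 66 lower and 2 higher with shEZH2, and 66 higher and 4 lower in the direct comparison. Of 1908 alternative values of the 32 named genes, 15 reversed, all of them under the centring on the members' median. Many others lost or gained a call without reversing. Losses were most frequent with a shEZH2 replicate left out or the shEZH2 samples averaged as 1.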

Other observations

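Pseudogene rows of the family held values of their own. RPL9P9 had 696 and 557 in Ctrl, 334 and 322 in DZNep, and 464 and 466 in shEZH2 samples, beside 1038 and 953, 541 and 546, and 721 and 703 for RPL9. RPS2P5 had 709 and 593, 547 and 429, and 548 and 553. RPL13P12 stood at 95 and 136, 134 and 98, and 139 and 150, and both shEZH2 values lay above those of the other groups. RPL13AP5 had 58 in 1 Ctrl sample and 8 in the other, and between 2 and 9 in the treated samples.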
